A study of Mus musculus with 24 samples.

Results

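The clustered protocadherins are 58 genes that lie side by side in 3 arrays, alpha, beta and gamma, on mouse chromosome 18. They were taken by symbol from the 24195 gene symbols of the deposited count tables, as every Pcdha, Pcdhac, Pcdhb, Pcdhga, Pcdhgb and Pcdhgc gene. The alpha array gave 14 members, of which Pcdhac1 and Pcdhac2 are its C-type genes, and the beta array gave 22. The gamma array gave 22 members, namely 12 of type A (Pcdhga), 7 of type B (Pcdhgb) and the 3 C-type genes Pcdhgc3, Pcdhgc4 and Pcdhgc5. The family was selected on measured values, since it was chosen by the lower Pcdhga11 level of the KO-labelled libraries in every tissue, and its differences between genotypes are given as a description, without a test. In the mm10 build with GENCODE M21 gene models the alpha genes span positions 36930184 to 37187661, the beta genes 37264938 to 37524479 and the gamma genes 37661793 to 37841873, all on the plus strand.

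Whole organs of C57BL6 females at 2.5 days post coitus, namely the pituitary, the hypothalamus, the ovary and the uterus, were profiled by bulk sequencing of messenger RNA. For each organ there were 3 wild-type libraries and 3 libraries with a Kdm4a knockout label, 24 in 8 groups, and the labels call the libraries of a group biological replicates. The females were virgin and 8 to 10 weeks old when mated, and the labels name no other allele or agent for either genotype. Kdm4a encodes a histone lysine demethylase, and the labels do not say what the knockout allele removes.

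Clustered protocadherins are cell-surface adhesion proteins of the cadherin superfamily. They are best known from neurons, where single cells use different sets of isoforms, like isoforms on facing membranes bind each other, and this recognition serves the self-avoidance of neurites and the survival of neurons. Each gene has its own promoter and a large variable exon for the ectodomain and the membrane span. Alpha transcripts are spliced to constant exons at the end of the alpha array and gamma transcripts to those at the end of the gamma array, whereas beta genes have no constant exons. CTCF, cohesin and DNA methylation take part in promoter choice, and the C-type genes are regulated differently from the others.

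Library totals ran from 13201596 to 23865382 counts, so 1 count was worth 0.0419 to 0.0757 CPM (counts per 1000000 counts of the library) before scaling by TMM over all 24 libraries. Kdm4a lay between 78.9 and 89.5 CPM in the wild-type uterus and between 58.8 and 64.0 CPM in the KO-labelled uterus. In the other 3 tissues the genotypes overlapped for Kdm4a, for example with 50.03 to 58.8 CPM in the wild-type and 47.0 to 69.2 CPM in the KO-labelled pituitary, and the libraries are called KO-labelled for that reason. The tissue labels matched their markers: 8 anterior pituitary markers summed to at least 456432 CPM in the wild-type pituitary and at most 200.2 CPM in the other wild-type tissues, 8 ovary markers to at least 13827 CPM in the wild-type ovary, 8 uterus markers to at least 6743 CPM in the wild-type uterus and 12 neuron markers to at least 8361 CPM in the wild-type hypothalamus. In 5 libraries the deviations from the tissue mean fell with exon length (rank correlation under -0.35), namely Ovary_KO2, Uterus_KO1, Pituitary_KO1, Hypothalamus_KO1 and Hypothalamus_WT3. The median member also lay below the tissue mean in these libraries, by -1.25, -0.16, -0.45, -0.60 and -0.22 on the log2 scale, over 21, 16, 47, 40 and 40 members. It was not low in these libraries alone. Uterus_KO3 lay at -0.22 with a rank correlation of 0.11, and Hypothalamus_KO2 at -0.19 with -0.18. Between genotypes, the medians and the fitted differences of named members are given with and without these 5 libraries. Counts of non-overlapping groups and the values of other gene lists rest on all libraries.

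Of the 58 members, 55 had a count in some library, and Pcdha4, Pcdha6 and Pcdha7 had 0 counts in all 24. Reads from the constant exons belong to several genes at once, and how the counting treated them is not given in the sources used here. Levels per length were therefore taken over the exon bases that no other GENCODE M21 gene shares. The large exons also resemble each other. The share of their 50-base words that recur in another gene was 0% for Pcdhga11, Pcdhgc3, Pcdhgc4, Pcdhac1 and Pcdhac2, 15.2% for Pcdhgc5, at most 12.0% for beta genes, and 39.5% for Pcdhga4, whose counts are the least certain among the gamma genes. Among the alpha genes outside the C-type it was 83.0%, 33.6% and 33.8% for Pcdha4, Pcdha6 and Pcdha7, the members without a count, and 10.2% to 18.8% for the others. Most words of Pcdha6 and Pcdha7 did not recur in another gene, and Pcdhga4, at 39.5%, had 1646 counts over the 24 libraries. The reason for the 0 counts was not tested. Since the counting settings are not given, the 0 counts do not show that these 3 genes were silent. The kit did not keep strand, so transcripts antisense to these exons would be counted with them.

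The pituitary and hypothalamus held more clustered protocadherin messenger RNA than the ovary and uterus. Summed over all members the level was 687 ± 31.9 CPM (SD, n = 3) in the wild-type pituitary, 439 ± 119 CPM in the hypothalamus, 198 ± 4.30 CPM in the ovary and 127 ± 8.89 CPM in the uterus. The distance between the first 2 tissues depended on the scaling, since with plain library totals the means were 484 CPM in the pituitary and 452 CPM in the hypothalamus. In bulk tissue, fewer cells of a type that uses these genes and less RNA per cell cannot be told apart.

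The arrays contributed unequally. The gamma array made up 63.8% ± 4.02 (SD, n = 3) of the members' CPM in the wild-type ovary, 57.0% ± 2.94 in the hypothalamus and 55.1% ± 1.09 in the pituitary. In the uterus it made up 28.3% ± 5.35, and the beta array 71.5% ± 5.45. The alpha array made up 8.10% ± 0.894 in the hypothalamus and 6.75% ± 0.289 in the pituitary, against 0.249% ± 0.0822 in the ovary and 0.212% ± 0.0944 in the uterus.

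**Figure D1:**
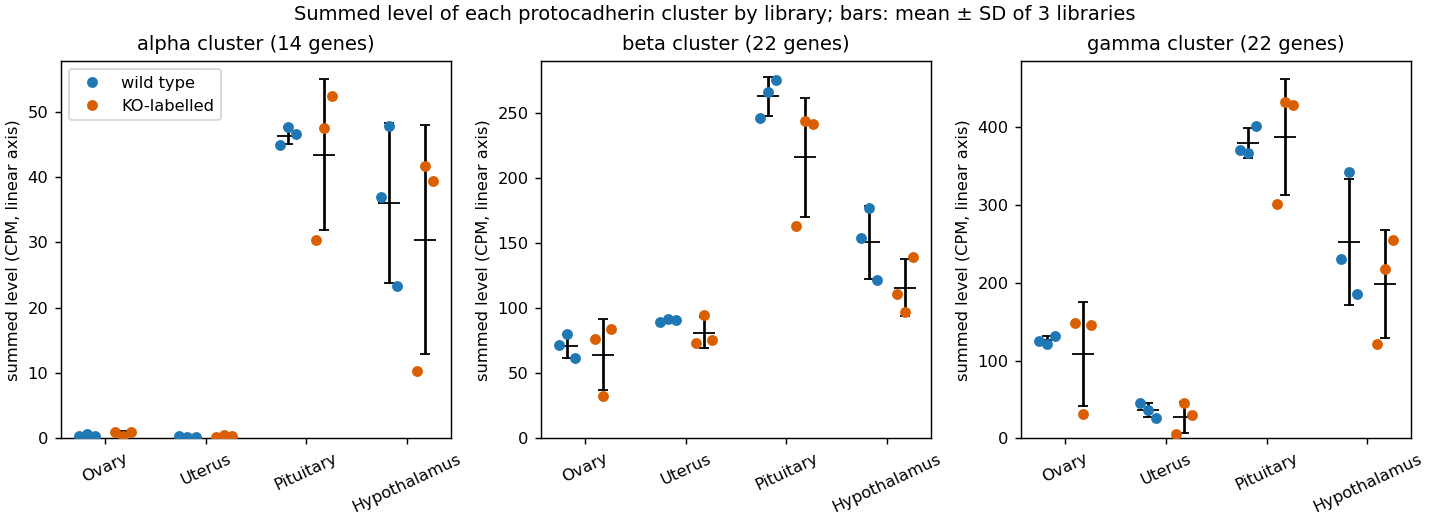
Summed CPM of the alpha, beta and gamma members (vertical axes) in each library of the 4 tissues (horizontal axes), by genotype label, with the mean and SD of each group of 3 libraries. The alpha array is close to 0 in the ovary and uterus, the beta array is present in all 4 tissues, and the gamma array is lowest in the uterus.

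Few genes carried the ovary and uterus levels. In the wild-type ovary 4 members, and in the uterus 5, made up 50% of the members' CPM, while the pituitary and the hypothalamus each needed 12. Per kb of own exon sequence, Pcdhgc3 was the highest member in the wild-type ovary (22.7 ± 2.10 CPM per kb; SD, n = 3), pituitary (23.9 ± 3.99) and hypothalamus (16.6 ± 2.89). In the uterus it came after Pcdhb9, with 5.75 ± 1.69 against 8.04 ± 0.482 CPM per kb. The next level per length in the ovary was that of Pcdhb9 with 3.88 ± 0.630 CPM per kb, and in the pituitary that of Pcdhgb6 with 15.8 ± 1.64 CPM per kb. In the hypothalamus Pcdhgc4 with 7.07 ± 2.82 and Pcdhac2 with 6.25 ± 2.11 CPM per kb followed, and these neighbours did not differ beyond their spread.

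**Figure D2:**
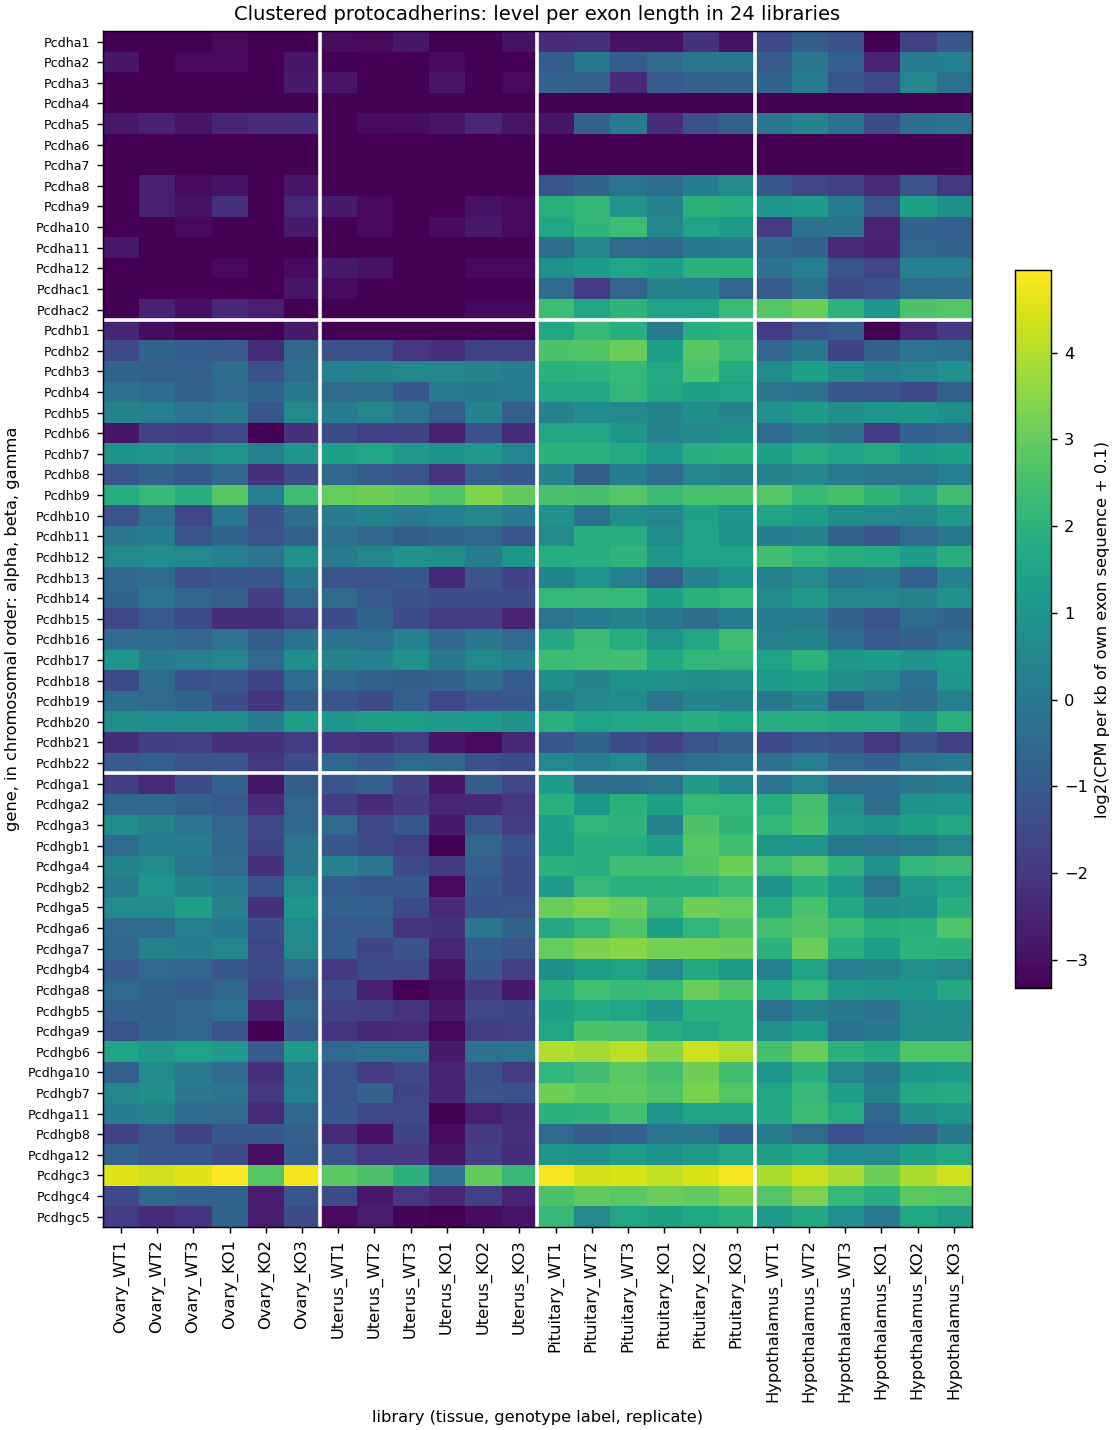
Level per length of the members (rows, by array) in each of the 24 libraries (columns, by tissue and genotype label), shown by colour on a log scale. Alpha members are near the bottom of the scale in the ovary and uterus, and Pcdhgc3 ranks highest or next to highest in all 4 tissues of the wild type.

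Tissues were compared in the 12 wild-type libraries with edgeR's quasi-likelihood test over 16399 genes, among them 55 members. In the pituitary 52 members were higher than in the ovary and 0 lower at FDR 0.05, with all 55 differences above 0, where 31.8% of all genes were higher and 29.9% lower. Against the uterus 50 members were higher in the pituitary and 0 lower, beside 33.7% and 35.6% of all genes. In the hypothalamus 45 members were higher than in the ovary and 1 lower, beside 35.2% and 36.2% of all genes, and 46 were higher than in the uterus and 1 lower, beside 36.8% and 38.9%. The members' median log2 difference was 2.52 for pituitary against ovary, 3.33 for pituitary against uterus, 1.65 for hypothalamus against ovary and 2.67 for hypothalamus against uterus. The medians of all genes in the same 4 pairs were 0.01, -0.04, -0.03 and -0.07. Of the 55, 9 had at most 3 counts in every wild-type ovary library and 12 in every uterus library. These entered the fit through the other tissues and so had to differ. Among the other members, a selection made after seeing the data, 43 of 46 were higher in the pituitary than in the ovary and 39 of 43 than in the uterus, and 36 of 46 and 34 of 43 were higher in the hypothalamus, with medians of 2.27, 2.63, 1.35 and 1.74. The 12 neuron markers summed to 8361 to 9180 CPM in the wild-type hypothalamus, 1311 to 1392 CPM in the pituitary, 128 to 164 CPM in the uterus and 54.9 to 73.6 CPM in the ovary, and their part in these differences was not tested.

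**Figure D3:**
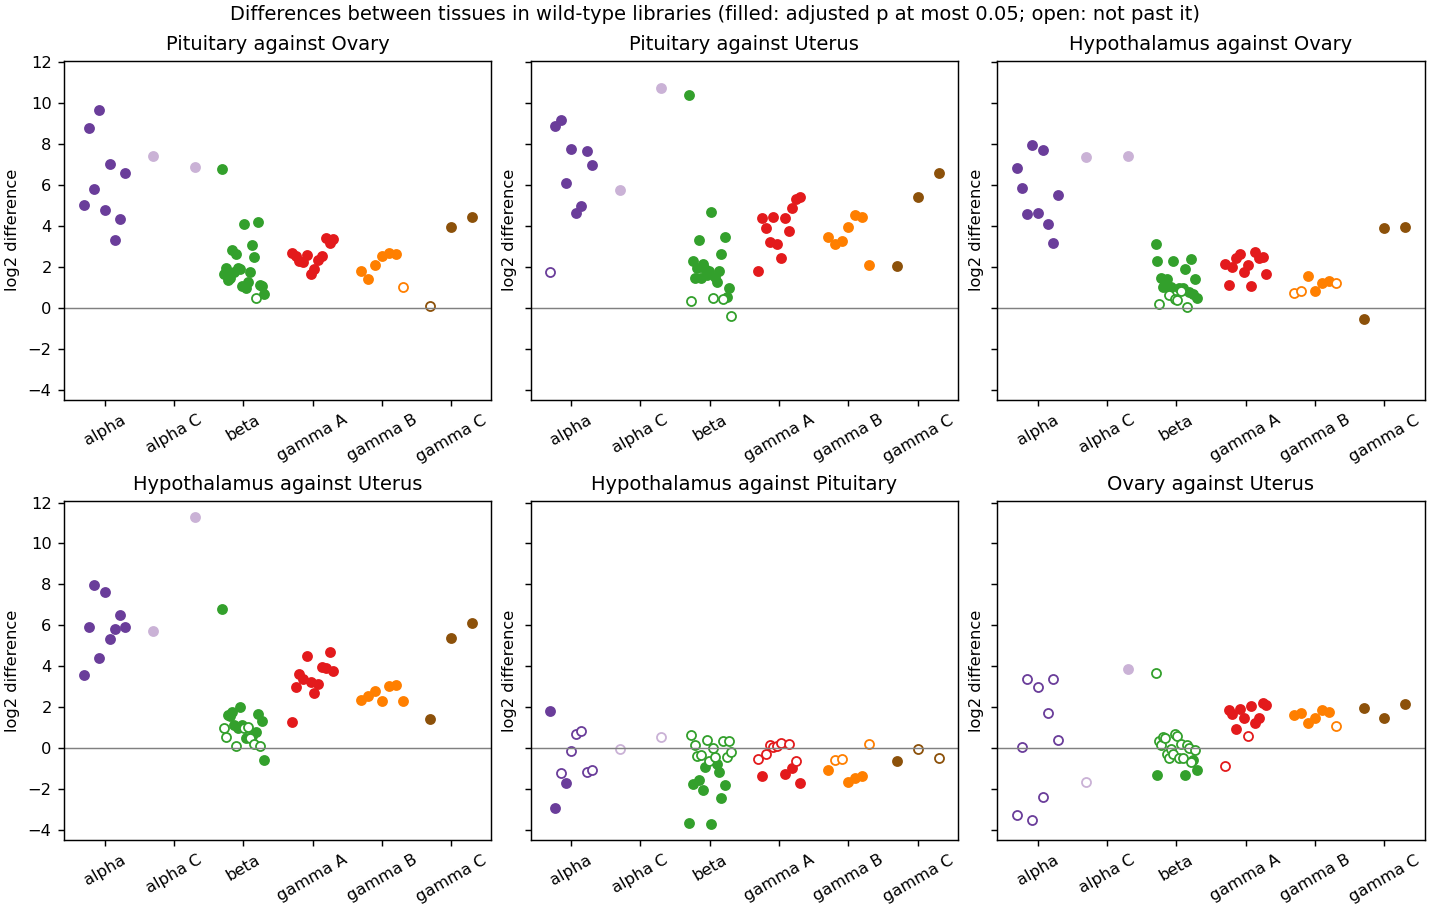
Log2 differences of the tested members between wild-type tissues (1 point per member, by subfamily), from the edgeR fit. Alpha members lie farthest above 0 against the ovary and uterus; where a member had no count in a tissue its fitted value is no bound on the difference.

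The alpha isoforms were rarely counted in the ovary and uterus. Of the 12 alpha members outside the C-type, 9 had over 3 counts in every wild-type hypothalamus library and 6 in every pituitary library, against 0 in the ovary and 0 in the uterus. They passed the filter on low counts through the pituitary and hypothalamus, so their tests against the ovary and uterus are not read as support. For weak members the libraries overlapped, as for Pcdha5 with 0.0900 CPM in 1 wild-type pituitary library and 0.160 CPM in 1 ovary library. Pcdha9, the highest of them per length in the mean over all wild-type libraries though below Pcdha10 in the pituitary, had 9.27, 10.9 and 4.60 CPM in the wild-type pituitary libraries, 4.81, 5.21 and 2.46 CPM in the hypothalamus, 0, 0.160 and 0.0826 CPM in the ovary and 0.128, 0.0412 and 0 CPM in the uterus. The ovary and uterus libraries, at 0 to 3 counts each, lay below all pituitary and hypothalamus libraries for this gene.

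The C-type genes, whose promoters are not part of the stochastic choice among the others, fell into distinct patterns. Pcdhac2 had 20.1, 24.7 and 12.0 CPM in the wild-type hypothalamus and 15.3, 8.51 and 12.3 CPM in the pituitary. It had 0, 0.213 and 0.0826 CPM in the ovary and 0 counts in all 3 wild-type uterus libraries, so its mean was at least 139.9-fold higher in the hypothalamus and at least 89.1-fold higher in the pituitary than the uterus floor of 3 counts per library. Pcdhac1 had no count in the wild-type ovary and was at least 8.20-fold higher in the hypothalamus, by the same floor.

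Pcdhgc4, an isoform known in mice for its role in neuronal survival, had 21.1, 26.9 and 24.4 CPM in the wild-type pituitary and 23.5, 34.9 and 15.4 CPM in the hypothalamus. In the ovary it had 0.886, 2.08 and 1.69 CPM and in the uterus 0.982, 0.165 and 0.512 CPM, below every pituitary and hypothalamus library. Its log2 difference was 3.97 between pituitary and ovary (SE 0.43, edgeR adjusted p = 1.78e-06) and -0.07 between hypothalamus and pituitary (SE 0.37, edgeR adjusted p = 0.889). Pcdhgc5 was also higher in the pituitary than in the ovary, by a log2 difference of 4.46 (SE 0.50, edgeR adjusted p = 2.48e-06), although its 3 wild-type pituitary libraries spread from 7.70 to 26.4 CPM.

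Pcdhgc3 differed from the other C-type genes in its high ovary level. It had 79.2, 68.8 and 82.4 CPM in the wild-type ovary, 96.3, 71.9 and 74.3 CPM in the pituitary, 50.8, 67.3 and 49.96 CPM in the hypothalamus and 24.5, 20.6 and 13.2 CPM in the uterus. The ovary and pituitary libraries overlapped, and those of the uterus lay below all others. Pcdhgc3 alone made up 38.9% ± 4.39 (SD, n = 3) of the members' CPM in the ovary, against 13.0% ± 1.84 in the hypothalamus. The log2 difference between ovary and uterus was 1.96 (SE 0.21, edgeR adjusted p = 2.56e-06) and that between pituitary and ovary 0.10 (SE 0.21, edgeR adjusted p = 0.701). Pcdhgc3 was the 1 member called lower in the hypothalamus than in the ovary, by a log2 difference of -0.53 (SE 0.21, edgeR adjusted p = 0.0325), and this call was lost under 8 of 20 alternative settings.

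The other gamma genes were higher in the pituitary and hypothalamus as a group. All 12 type A members were higher in both tissues than in the ovary and than in the uterus, and all 7 type B members were higher in both than in the uterus. Against the ovary, 6 of the 7 type B members were called higher in the pituitary and 4 in the hypothalamus. Of all genes, 31.8% and 33.7% were higher in the pituitary than in the ovary and uterus, and 35.2% and 36.8% in the hypothalamus. Pcdhgb6 had 40.8, 36.3 and 44.7 CPM in the wild-type pituitary and 1.58, 1.85 and 1.84 CPM in the uterus, a log2 difference of 4.53 (SE 0.29, edgeR adjusted p = 4.73e-09). Pcdhga7, the highest type A member per length in the pituitary and in the mean over all wild-type libraries, had 24.1, 30.5 and 34.3 CPM in the wild-type pituitary and 1.82, 3.47 and 3.18 CPM in the ovary, a log2 difference of 3.41 (SE 0.37, edgeR adjusted p = 1.54e-06).

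The beta genes were present in all 4 tissues. In the wild-type uterus 21 of 22, and in the ovary 20 of 22, had over 3 counts in every library. In the pituitary 21 of 22 were higher than in the ovary and 18 higher than in the uterus, beside 31.8% and 33.7% of all genes. In the hypothalamus 16 and 13 were higher, beside 35.2% and 36.8%. Pcdhb9 had 23.8, 26.3 and 23.6 CPM in the wild-type uterus, 10.4, 14.04 and 11.1 CPM in the ovary, 17.9, 17.3 and 19.8 CPM in the pituitary and 20.2, 14.2 and 17.45 CPM in the hypothalamus. All uterus libraries lay above those of the other tissues, and it was the 1 member called lower in the hypothalamus than in the uterus, by a log2 difference of -0.60 (SE 0.19, edgeR adjusted p = 0.00876). With trends over transcript length and GC content removed from each library, that difference was -0.35 (edgeR adjusted p = 0.0644).

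Between hypothalamus and pituitary 21 members were lower in the hypothalamus and 1 higher, beside 30.2% and 30.8% of all genes, with a member median of -0.52. The lower ones were 10 beta, 4 type A and 4 type B gamma genes, Pcdhgc3, Pcdha10 and Pcdha12. Pcdha10 had 7.47, 10.3 and 12.6 CPM in the wild-type pituitary and 0.438, 1.89 and 1.90 CPM in the hypothalamus, a log2 difference of -2.93 (SE 0.51, edgeR adjusted p = 0.000177). Pcdhb2, singled out after its values were seen, had 17.3, 18.1 and 23.1 CPM in the wild-type pituitary and 1.53, 2.46 and 0.633 CPM in the hypothalamus, a log2 difference of -3.73 (SE 0.44, edgeR adjusted p = 3.98e-06). In both genes the groups stood far apart. Pcdha1 was the 1 member called higher, by 1.82 (SE 0.68, edgeR adjusted p = 0.0348), at a mean of 0.839 CPM, and the call was lost under 12 of 19 alternative settings.

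Between ovary and uterus 20 members were called higher in the ovary and 4 lower, beside 26.4% and 32.7% of all genes. The higher ones were 10 of 12 type A and 6 of 7 type B gamma genes, all 3 gamma C-type genes and Pcdhac2, which was at or under the floor of 3 counts in both tissues on average and is given no fold. The Pcdhac2 call was lost under 11 of 20 alternative settings, that of Pcdhgc4 under 5 and that of Pcdhgc5 under 3. The 4 lower ones were the beta genes Pcdhb3, Pcdhb7, Pcdhb9 and Pcdhb10, and the Pcdhb7 call was lost under 5 of 20 settings. Pcdhb9 differed by -1.07 on the log2 scale (SE 0.19, edgeR adjusted p = 0.000212).

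The same tissue pairs were fitted in the 12 KO-labelled libraries, where 54 members were tested. Of all 58 members, 12 had at most 3 counts in every KO-labelled ovary library and 14 in every uterus library. These include the 3 without a count anywhere. Those that were tested entered the fit through the pituitary and hypothalamus, so their calls against the ovary and uterus are not read as support. In the pituitary 47 members were higher than in the ovary and 0 lower, beside 25.3% and 25.1% of all genes, and 48 were higher than in the uterus and 0 lower, beside 29.6% and 29.8%. All of these were also called in the wild type. In the hypothalamus 34 were higher than in the ovary and 1 lower, beside 32% and 29.3% of all genes, and 33 of the higher ones were called in both genotypes. Against the uterus 41 were higher there and 1 lower, beside 34.7% and 30.8%, and 39 of the higher ones were called in both. The hypothalamus had 0 higher and 17 lower than the pituitary, beside 28.5% and 22.1%, with 14 called in both. The ovary had 9 higher and 1 lower than the uterus, beside 19.2% and 21.1%, with 8 and 1 called in both. No member was called in opposite directions in the 2 genotypes. Pcdhb4 was called lower in the KO-labelled hypothalamus than in the ovary, by -0.90 (SE 0.35, edgeR adjusted p = 0.0397), and than in the uterus, by -1.42 (SE 0.35, edgeR adjusted p = 0.00276). In the wild type it differed by 0.05 and 0.19 in these pairs, and the change between genotypes was not tested.

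Pcdhga11, the gamma type A gene that led to the choice of the family, spans positions 37755731 to 37841873 of chromosome 18. In the ovary it had 2.71, 2.99 and 1.69 CPM in the wild-type libraries and 1.63, 0.254 and 1.51 CPM in the KO-labelled ones. In the uterus it had 0.982, 0.659 and 0.666 CPM against 0, 0.158 and 0.293 CPM. In the pituitary it had 9.90, 10.7 and 14.3 CPM against 4.84, 6.83 and 7.18 CPM. Every KO-labelled library of these 3 tissues lay below every wild-type library, with gaps that were small in the ovary. In the hypothalamus it had 8.24, 13.3 and 8.94 CPM against 1.53, 4.23 and 5.26 CPM, again without overlap. The raw counts were low in the uterus, with 23, 16 and 13 against 0, 4 and 7. The fitted log2 difference of KO-labelled against wild type was -1.10 (SE 0.63) in the ovary, -2.31 (SE 0.73) in the uterus, -0.91 (SE 0.26) in the pituitary and -1.50 (SE 0.42) in the hypothalamus. Without the 5 libraries low for long genes it was -0.65, -1.75, -0.75 and -1.23. The authors' deposited DESeq2 table gave -0.60 (SE 0.35), -0.57 (SE 0.23), -0.62 (SE 0.20) and -0.996 (SE 0.28). It held 0 members with a DESeq2 adjusted p of at most 0.05 in any tissue. Its estimates could be small for members with almost no counts, as for Pcdha1 in the ovary (0.06, SE 0.10). The sizes are therefore not compared with those of the edgeR fits.

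**Figure D4:**
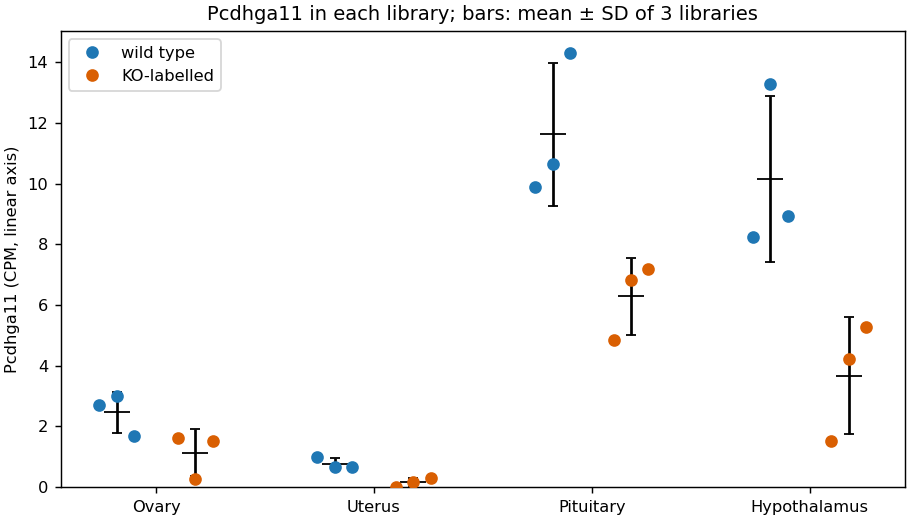
Pcdhga11 level in CPM (vertical axis) in each library of the 4 tissues, by genotype label, with the mean and SD of 3 libraries. In each tissue the KO-labelled libraries lie below the wild-type ones, at the lowest level in the uterus, where 1 KO-labelled library has no count.

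Between tissues, on which the choice of the family did not rest, Pcdhga11 in the wild type was higher in the pituitary than in the uterus by 3.91 (SE 0.35, edgeR adjusted p = 1.63e-07) and than in the ovary by 2.27 (SE 0.31, edgeR adjusted p = 1.94e-05). The hypothalamus and pituitary differed by -0.29 (SE 0.29, edgeR adjusted p = 0.407). Per length it ranked 15 of the members in the wild-type ovary, 29 in the uterus, 15 in the pituitary and 12 in the hypothalamus.

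As a description of the genotype contrast, 43 members were tested in the ovary, 39 in the uterus, 54 in the pituitary and 53 in the hypothalamus. Of these, 0 passed FDR 0.05 with edgeR, DESeq2 or limma-voom in any tissue. A simulated 2-fold change, placed in genes of any kind with a mean of at least 1 CPM, was recovered by edgeR in 13.4%, 73.1%, 58.2% and 17.9% of cases in these tissues. Members with a lower mean, such as Pcdhga11 in the uterus, were not covered by this simulation. The 0 calls therefore do not show that no member changed. The background called was 0% of genes in the ovary, 0.349% in the uterus, 0.0424% in the pituitary and 0% in the hypothalamus in either direction, and 0%, 0.215%, 0.0282% and 0% for lower genes alone. The members with an unadjusted edgeR p under 0.05 numbered 2, 6, 7 and 3. Among all genes tested, 1110 of 14460, 1889 of 14910, 1749 of 14163 and 999 of 14788 were under it. The members' median log2 difference was -0.27, -0.43, -0.08 and -0.42. Without the 5 libraries low for long genes it was 0.00, -0.11, 0.09 and -0.34. In the ovary 31 of 43 members lay below 0 with all libraries and 21 without the 5, and in the uterus 31 of 39 and 26. In the pituitary it was 32 of 54 and 18, and in the hypothalamus 47 of 53 and 46. With length and GC trends removed it was 29, 30, 30 and 40 in the same order of tissues. Of all genes, 47.5%, 48.4%, 50.1% and 49.3% lay below 0 with all libraries. The 12 neuron markers summed to 8361 to 9180 CPM in the wild-type and 8403 to 9055 CPM in the KO-labelled hypothalamus, with 6 of 12 markers above and 6 below 0 in log2 difference (Map2 -0.65 and Elavl4 -0.60, both neuronal). In the same tissue, 6 astrocyte markers summed to 3813 to 4415 CPM against 2409 to 3856 CPM, with Slc1a2 at -0.77 and Aqp4 at -0.82. The 10 smooth muscle and fibroblast markers there summed to 168 to 221 CPM against 217 to 256 CPM, with 9 above 0, Col1a1 at 2.10 and Col1a2 at 1.22. The 8 anterior pituitary markers summed to 456432 to 688231 CPM in the wild-type and 728273 to 1090300 CPM in the KO-labelled pituitary, on the TMM scale, which can exceed the library total. That sum does not stand for each marker. Cga averaged 4825 CPM in the wild-type and 3431 CPM in the KO-labelled pituitary (-0.53), and Pitx1 70.6 and 129.7 CPM (0.84). The part of the markers and of these libraries in the members' differences was not tested.

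Members whose groups did not overlap numbered 4 lower and 1 higher in the ovary, beside 9.34% and 8.3% of all genes. In the uterus they numbered 4 and 1, beside 10.1% and 9.4%. In the pituitary they numbered 7 and 0, beside 8% and 11.3%, and in the hypothalamus 2 and 0, beside 3.41% and 8.09%. Pcdhga11 was the 1 of 39 members tested in all 4 tissues that was lower without overlap in each, as were 9 of 12522 genes in all. The family was chosen by this very contrast, so the count is no evidence that Pcdhga11 stands out. A log2 difference below 0 in all 4 tissues was found for 16 of these 39 members and 1941 of the 12522 genes. Pcdhga3 in the ovary had 4.07, 2.88 and 2.23 CPM against 1.44, 0.634 and 1.56 CPM, a difference of -1.33 (SE 0.46), or -1.03 without the libraries low for long genes. Pcdhb4 in the uterus had 2.31, 2.43 and 1.38 CPM against 3.70, 3.41 and 3.73 CPM, a difference of 0.81 (SE 0.29), or 0.80 without those libraries. Pcdha10 in the pituitary had 7.47, 10.3 and 12.6 CPM against 3.36, 6.60 and 5.31 CPM, a difference of -1.02 (SE 0.31), or -0.79 without them. Pcdhb6 was lower without overlap in the pituitary (-0.96, SE 0.28) and in the hypothalamus (-0.997, SE 0.47), with -0.84 and -0.67 without them.

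**Figure D5:**
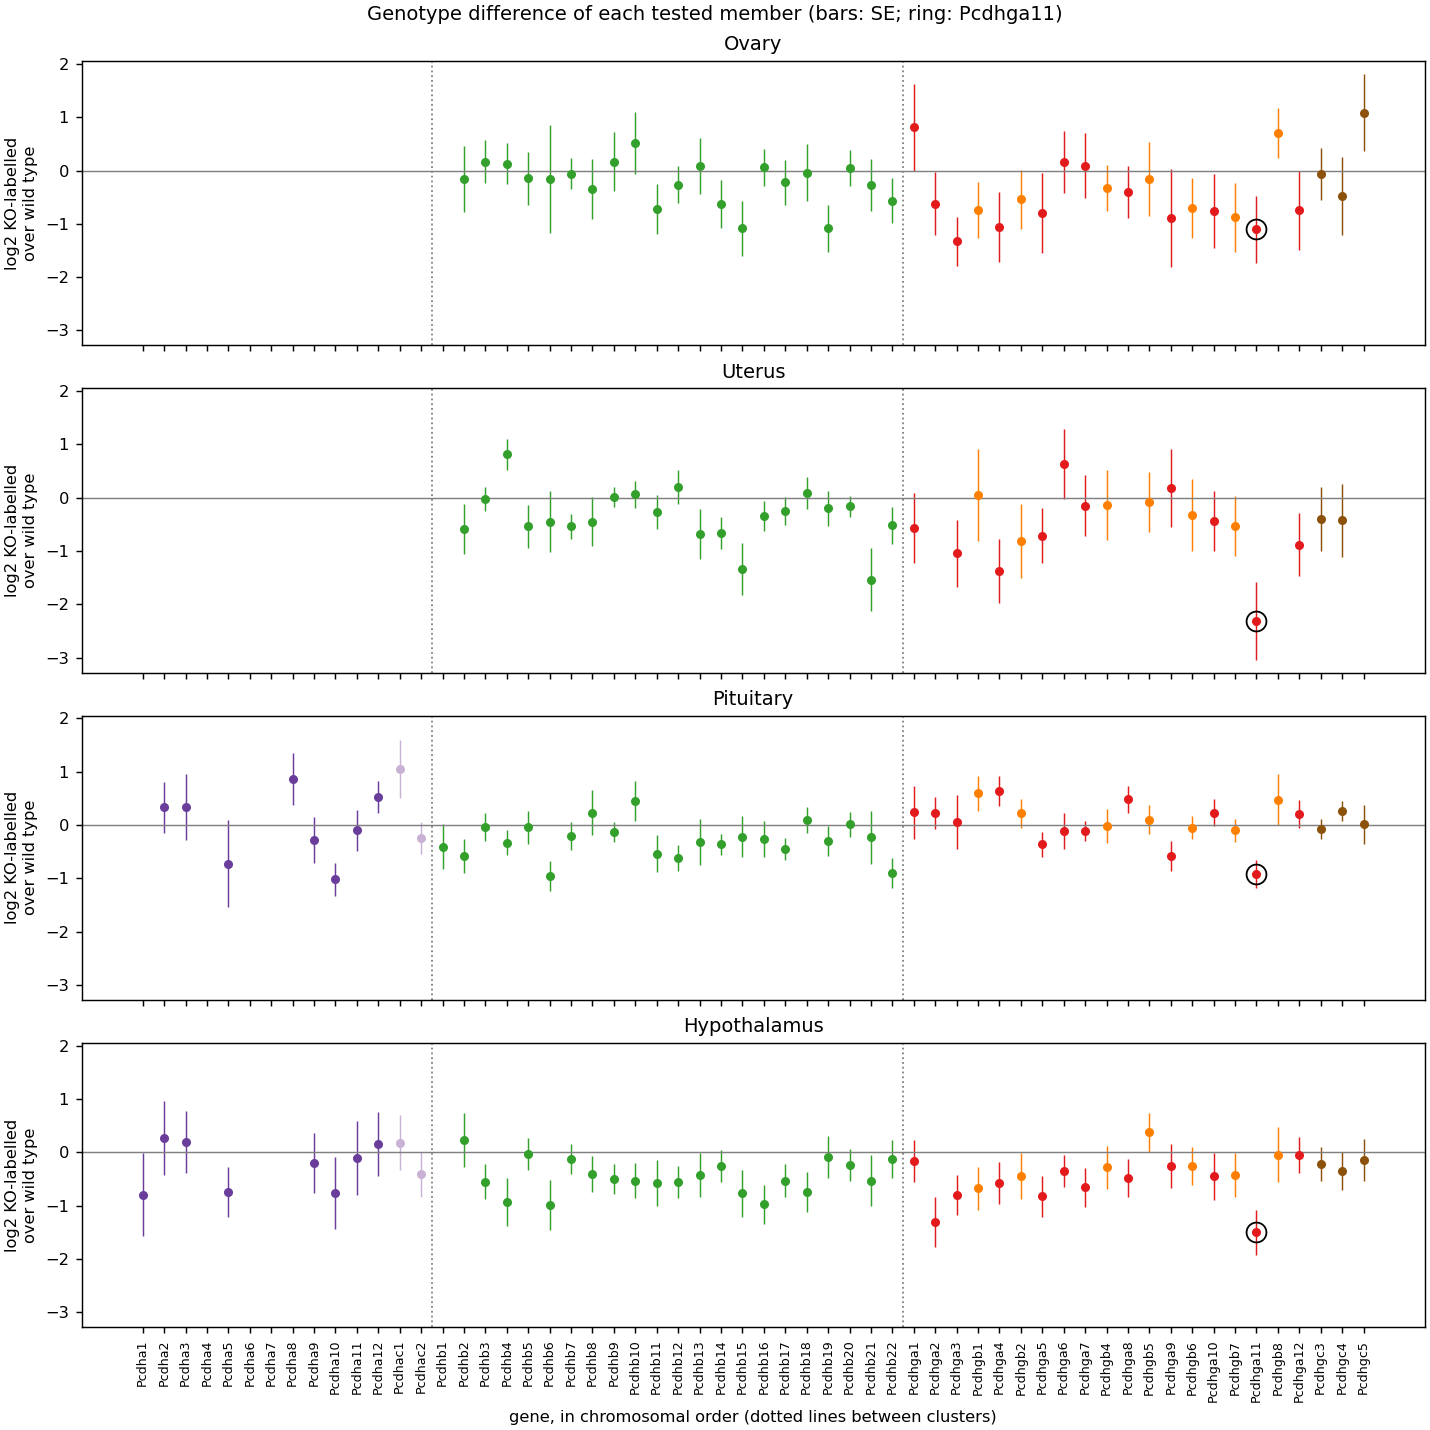
Log2 differences of the tested members between KO-labelled and wild-type libraries in each tissue, by subfamily, from the edgeR fits. Among the 39 members tested in all 4 tissues, 16 lie below 0 in each tissue, and Pcdhga11 is among these 16. Every tissue also has members above 0, and in the hypothalamus 47 of the 53 tested members lie below 0 (49.3% of all genes were below 0).

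Other lists, chosen with earlier results of these data known, set the family beside related genes. Of 12 non-clustered protocadherins, single adhesion genes outside the arrays, 10 were higher and 1 lower in the wild-type hypothalamus than in the ovary, beside 35.2% and 36.2% of all genes. Against the pituitary 8 were higher and 1 lower, beside 30.8% and 30.2%. Of the 55 clustered members tested in that last pair, 1 was higher, 21 were lower and 33 were not called. Pcdh10 averaged 249 CPM in the wild-type hypothalamus, 42.0 CPM in the pituitary, 1.43 CPM in the ovary and 0.510 CPM in the uterus. Of 29 classical and seven-pass cadherins tested, 18 were higher and 8 lower in the hypothalamus than in the ovary, beside 35.2% and 36.2% of all genes. Of 25 chromatin and DNA regulators of the arrays, 4 were higher and 17 lower in that pair, beside the same shares of all genes. Smchd1, which in mice represses clustered protocadherins, averaged 129.6 CPM in the pituitary, 102 CPM in the ovary, 52.7 CPM in the hypothalamus and 26.9 CPM in the uterus. Of 22 genes for cleavage, binding and signalling partners 10 were higher and 9 lower in the hypothalamus than in the ovary. Of 22 genes beside the arrays 9 were higher and 8 lower in this pair, where 35.2% and 36.2% of all genes were called. Between genotypes 0 genes of these lists passed edgeR's FDR 0.05 in any tissue. The smallest edgeR adjusted p among them was 0.233, for Cd14 in the uterus, with a log2 difference of -0.50 (SE 0.16).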

How the data were processed

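A poly-A, unstranded TruSeq kit was used on 0.5 µg of RNA with 13 PCR cycles, per the labels' protocols. STAR, HTSeq, DESeq2, FastQC, Trimmomatic and the mm10 build are listed in the submitters' processing notes, without versions, and the sources used here do not give the annotation or counting settings. The authors deposited raw counts per gene symbol, and tables of genotype comparisons with log2 fold changes, their standard errors and adjusted p-values, per the file headers. Of 24222 entries, 27 with symbols turned into dates (0.122 to 0.392% of counts) were left out.

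The counts were tested with edgeR 4.0.16 (R 4.3.3; TMM scaling, filterByExpr, robust quasi-likelihood fit, Benjamini-Hochberg adjustment, FDR 0.05): 6 tissue pairs in 1 fit per genotype, and genotypes within each tissue. CPM were scaled by TMM over 24 libraries. Alternatives used DESeq2 1.42.0, limma 3.58.1 (voom), other scaling and filters, a replicate block and libraries left out. The procedure was tested on simulated data, with changes placed only in genes with a mean of at least 1 CPM. A 2-fold change between genotypes was recovered for 13.4% of changed genes in the ovary and 17.9% in the hypothalamus. In the uterus it was 73.1% and in the pituitary 58.2%. In the tissue fits it was 55.2% in the wild type and 5.97% in the KO-labelled libraries. Fewer calls in the KO-labelled libraries are therefore not read as smaller differences. The members and all lists were chosen with earlier results of these data known. Genes named were Pcdhga11, the C-type members, the 3 highest per length in each tissue, the highest and lowest of each subfamily, the 3 with the largest genotype difference per tissue at 1 CPM or more, members called against their subfamily, and the 2 genes of smallest p per list and tissue. Other genes named are examples or counts of few. Counting error alone limits values near 3 counts.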

Additional observations from a re-analysis of the deposited data

How the results depend on the processing

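No called tissue difference of a named wild-type member changed sign under the alternatives run. Of 35 uncalled genotype differences of named members, 10 changed sign under some setting, all with a size of at most 0.32 in the main analysis (for example Pcdhga3 in the pituitary, 0.05, from -0.46 to 0.49 with 1 library left out, and Pcdhb6 in the ovary, -0.15, from -1.07 to 0.38). The members' pituitary median went from -0.08 to 0.09 without the libraries low for long genes. The count of members called between KO-labelled ovary and uterus was 10, became 16 with the length and GC trends removed, an alternative chosen after seeing the data, and ranged from 4 (without Ovary_KO replicate 3 or Uterus_KO replicate 1) to 18 (without Ovary_KO replicate 2). The count between KO-labelled hypothalamus and pituitary was 17 and ranged from 10 (without Hypothalamus_KO replicate 1 or Pituitary_KO replicate 2) to 22 with 1 library left out. Pcdhga11 in the uterus differed by -2.88 with limma-voom and -1.75 without the libraries low for long genes, also chosen after seeing the data, and by -3.16 to -1.75 with 1 library left out; it gave no value under a filter of 1 CPM in 3 libraries. With plain library totals the alpha sums were 32.7 CPM in the wild-type and 26.3 CPM in the KO-labelled pituitary. The beta sums were then 88.7 CPM in the wild-type ovary, 113 and 103 CPM in the wild-type and KO-labelled uterus, and 185 and 130.3 CPM in the pituitary. The gamma sums were 157 CPM in the wild-type ovary and 266 and 233 CPM in the wild-type and KO-labelled pituitary. The cause of these shifts was not tested.

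Replicate numbers were not taken to pair the libraries, since not every same-numbered pair correlated above 0.1. Differently numbered libraries were not correlated for comparison, so these values cannot show whether the libraries were paired. The correlations ran from -0.06 to 0.08 between wild-type tissues (0 of 18 over 0.1), from -0.33 to 0.29 between KO-labelled tissues (9 of 18) and from -0.23 to 0.20 between genotypes within a tissue (1 of 12). Under a replicate block Pcdhga11 differed by -1.28 in the ovary, -2.38 in the uterus, -0.92 in the pituitary and -1.62 in the hypothalamus, and 0 members passed FDR 0.05 between genotypes. Counts near the floor limit the alpha members in ovary and uterus and Pcdhga11 in the uterus.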
